A study of Mus musculus with 8 samples.

Results

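WFS1 occupancy was examined at 49 mouse genes that encode structural, regulatory and assembly proteins of the sarcomere, out of 21938 protein-coding genes on chromosomes 1 to 19, X and Y. The genes were taken from a fixed list written from general knowledge, with earlier results of these data known. The data were the ChIP-seq peak lists of wildtype C2C12 myoblasts, an immortalized mouse skeletal muscle precursor line, kept proliferating and crosslinked with DSG and formaldehyde before immunoprecipitation with an antibody to WFS1. WFS1 (wolframin) is a membrane protein of the endoplasmic reticulum, which is continuous with the nuclear envelope, and the study examined it in connection with the nuclear position of the MyoD1 gene. The 30-cycle and 36-cycle lists came from 1 library each, made from portions of the same chromatin, the latter sonicated for 6 more cycles, so they share cells and antibody incubation and are not biological replicates. The 6 further libraries of the series, the inputs and those of WFS1 knockout cells expressing Flag-tagged WFS1, were not used here. The lists hold positions only, with no height, score or read count, so depth is unknown, the muscle identity of the cells could not be checked from them, and each result is a count of genes or peaks without a test. Overlapping peaks of both lists were joined, which gave 22292 peaks, of which 22287 lay on the nuclear chromosomes. The 30-cycle list held 18283 peaks and the 36-cycle list 12674.

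The sarcomere is the contractile unit of striated muscle. Myosin thick filaments, cross-linked at the M-band and decorated by myosin-binding proteins, slide past actin thin filaments that carry the troponin complex and are anchored in the Z-disc, while titin spans from Z-disc to M-band. Most of these genes are switched on by MyoD, myogenin and MEF2 factors when myoblasts leave the cell cycle and fuse, and proliferating myoblasts contain no assembled sarcomeres.

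Sarcomere genes held a WFS1 peak at the start site about as often as all coding genes or those of like length. They had a peak in their surroundings more often. A peak lay within 1 kb of the start site in 7 of 49 members (14.3%), compared with 13.2% of all protein-coding genes. Because long genes hold more peaks, each member was also set beside the other coding genes within 10% of its length, and the shares of those genes with a peak were averaged over the members. This length-matched share was 14.2%, 0.107 percentage points below that of the members. In the gene itself, 15 members (30.6%) held a peak, beside 24.6% of all coding genes and 26.9% at matched length. In the gene or within 50 kb of either end, 38 members (77.6%) had a peak, beside 61% of all coding genes and 63.1% at matched length, a difference of 14.4 percentage points.

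**Figure D1:**
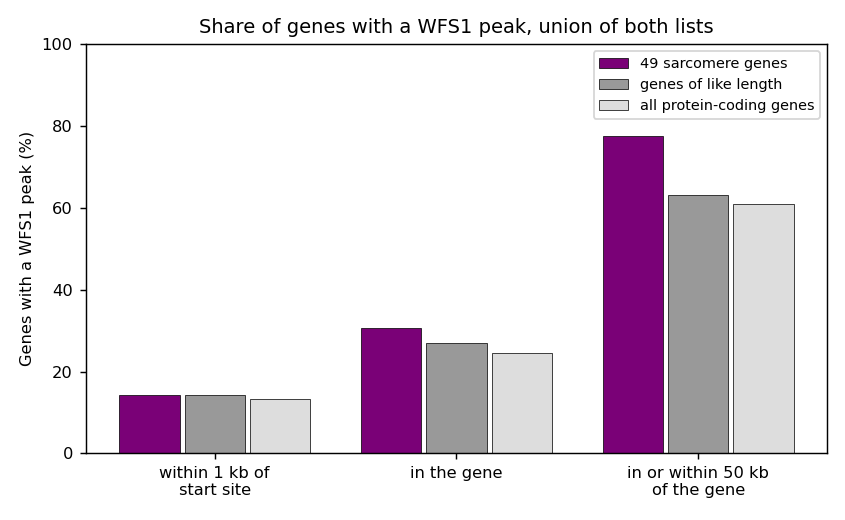
Share of genes (%) with at least 1 WFS1 peak of the joined lists in 3 windows, for the 49 sarcomere genes, for coding genes of like length and for all 21938 protein-coding genes; no error bars are drawn because there is 1 library per list. The bars are nearly level at the start site (14.3, 14.2 and 13.2%) and furthest apart within 50 kb (77.6, 63.1 and 61%).

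Either list alone gave the same order within 50 kb. In the 30-cycle list 37 members (75.5%) had a peak there, beside 57.5% of all coding genes and 59.5% at matched length. In the 36-cycle list 29 members (59.2%) did, beside 43.3% of all coding genes and 44.9% at matched length. At the start site, each list alone gave a share close to and slightly below that of the others, over few genes. The 30-cycle list gave 5 members (10.2%), beside 10.9% of all coding genes and 11.8% (5.76 members) at matched length. The 36-cycle list gave 2 members (4.08%), beside 6.02% of all coding genes and 6.37% (3.12 members) at matched length. In the gene, the 30-cycle list gave 13 members (26.5%), beside 21.8%, and the 36-cycle list 11 members (22.4%), beside 15%.

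**Figure D2:**
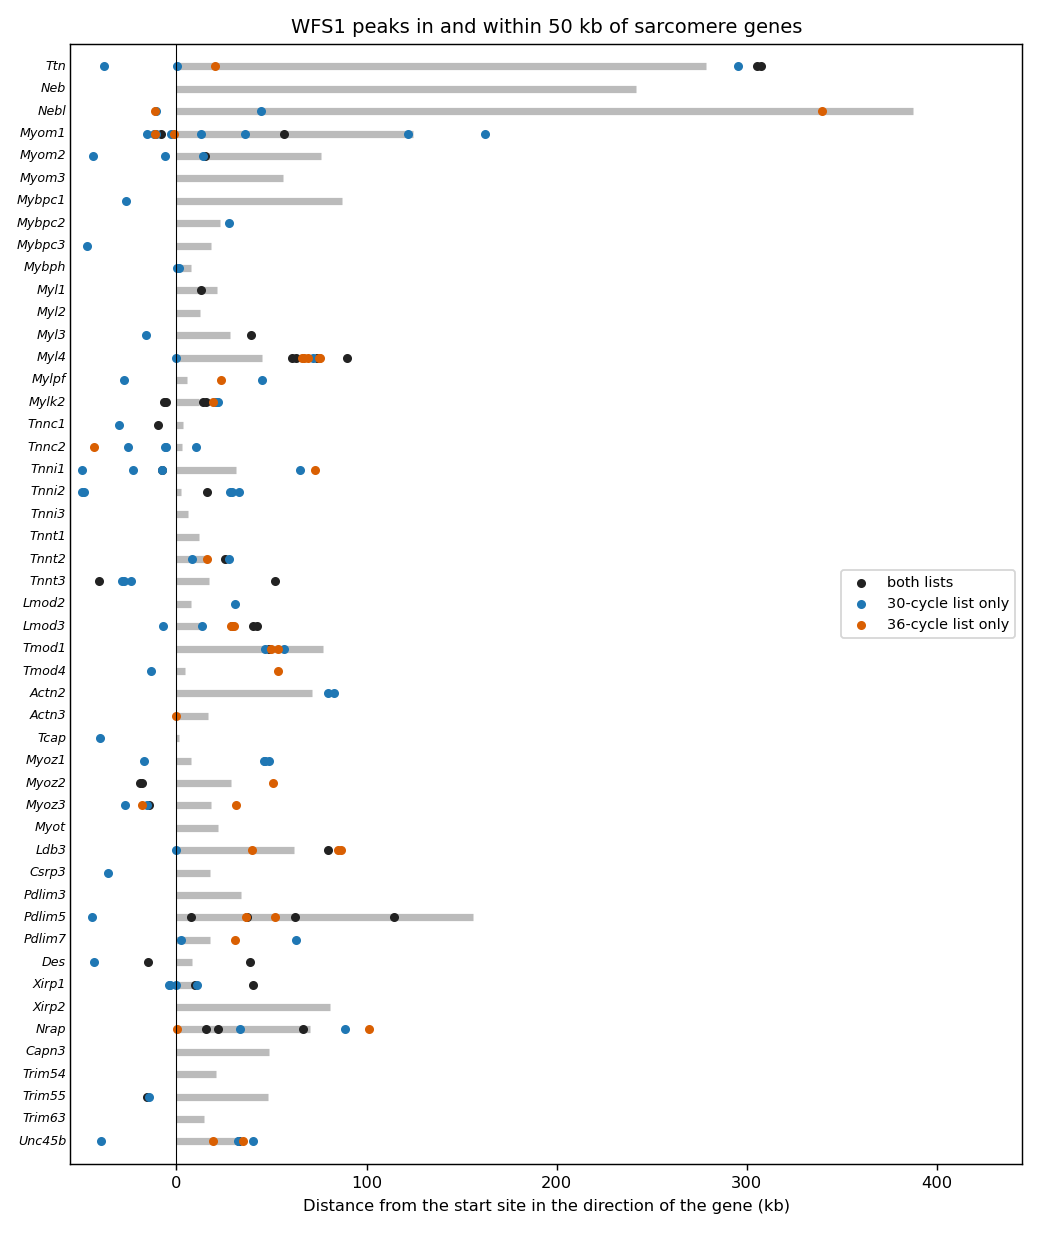
WFS1 peaks (points, coloured by the list that called them) in and within 50 kb of each of the 49 sarcomere genes, plotted by distance from the start site in the direction of the gene (kb); grey bars span the gene. The points at the start line are blue or orange for 7 genes and black for none, and 11 genes, among them Neb, Xirp2 and Trim63, have no point.

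The 7 start-site peaks were each called in 1 list only, 5 in the 30-cycle list and 2 in the 36-cycle list. They lay at Ttn, Mybph, Myl4, Ldb3 and Xirp1 in the 30-cycle list and at Actn3 and Nrap in the 36-cycle list, and were 247 to 534 bp wide. At 3 of the 7 the peak also lay in or at the start of another gene. The Myl4 peak (chr11:104550057-104550515, 459 bp, GC content 69.1%) lay 0.148 kb upstream of the start site and within 1 kb of that of Cdc27, a subunit of the anaphase-promoting complex. The Actn3 peak (chr19:4877897-4878243, 347 bp) overlapped the start site and was also within 1 kb of that of Zdhhc24. The Xirp1 peak lay inside Cx3cr1, a chemokine receptor gene. Only at Ldb3 and Xirp1 did a start-site peak lie upstream of the gene without reaching the start site of another coding gene. These 2 sequences are therefore shown, as the central 200 bases of each peak on the plus strand of GRCm38, with any match to the motifs described further on in capitals. Ldb3 encodes the Z-disc PDZ-LIM protein cypher, and its peak (chr14:34588779-34589191, 413 bp) ended 0.097 kb upstream of the start site. Xirp1 encodes an actin-binding repeat protein of the intercalated disc and myotendinous junction, and its peak (chr9:120023748-120024052, 305 bp) ended 0.150 kb upstream. Each stretch holds TGTGGT once, in Xirp1 as the complement ACCACA.
Ldb3 upstream, chr14:34588886-34589085: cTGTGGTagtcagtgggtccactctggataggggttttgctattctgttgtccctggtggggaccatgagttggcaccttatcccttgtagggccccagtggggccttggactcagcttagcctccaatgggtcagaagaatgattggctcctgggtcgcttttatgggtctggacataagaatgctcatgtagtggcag
Xirp1 upstream, chr9:120023801-120024000: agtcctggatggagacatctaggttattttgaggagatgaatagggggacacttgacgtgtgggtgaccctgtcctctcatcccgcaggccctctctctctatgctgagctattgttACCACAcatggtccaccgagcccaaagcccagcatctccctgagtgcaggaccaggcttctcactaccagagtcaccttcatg

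Start sites of sarcomere genes were mostly poor in CpG. A start site was called CpG-rich when the 500 bp to either side had a GC content of at least 50% and an observed over expected CpG ratio of at least 0.6. By this measure 41 members (83.7%) were CpG-poor, compared with 55.6% of all coding genes, and the median CpG ratio was 0.263 in the members and 0.552 in all coding genes. Median GC content was similar, at 53.7% and 54.7%. Of the other coding genes, 22.6% of the CpG-rich (2202 of 9730) and 5.65% of the CpG-poor (687 of 12159) had a peak at the start site. Among the members, 1 of 8 CpG-rich genes (12.5%, Myl4) and 6 of 41 CpG-poor genes (14.6%) had a peak there. Beside genes of the same CpG class, with length not matched, the start-site share of the members was 5.86 percentage points higher. This rests on few genes and was not tested. The other 7 CpG-rich members, with no peak at the start site, were Nebl, Myom1, Mylpf, Tmod1, Pdlim5, Pdlim7 and Des. For Myom1 and Mylpf the RefSeq start lay 16.9 and 2.72 kb from the GENCODE start used here, so their class describes the latter. No peak lay within 1 kb of either RefSeq start.

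**Figure D3:**
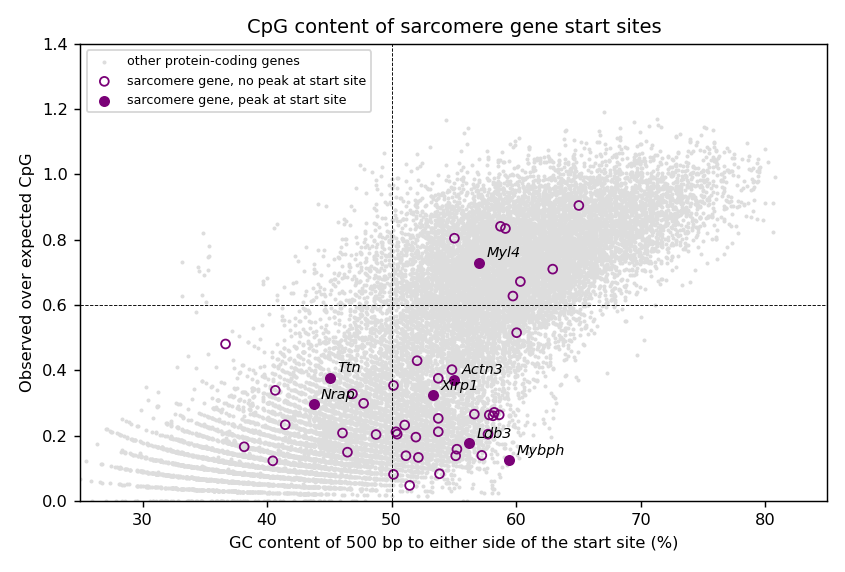
GC content (%) against the observed over expected CpG ratio of the 1 kb around each start site for sarcomere genes with (filled) and without (open) a WFS1 peak there and for other protein-coding genes (grey); dashed lines mark the limits of the CpG-rich class, 50% and 0.6. Of the 7 filled points, Myl4 alone lies above both limits.

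Among the giant filament proteins, Ttn and Nebl held 2 peaks each and Neb none, in each case fewer than genes of their length held on average. Ttn encodes titin, the molecular spring of the sarcomere. Its start-site peak (chr2:76982144-76982390, 247 bp) began 0.157 kb into the gene and touched a UTR exon, with its centre in intron 1. A further peak of 233 bp, called in the 36-cycle list only, lay in intron 13. Genes of the length of Ttn (279 kb) held 2.81 peaks on average, and 50.8% of them held 2 or more. Of the other 4 peaks within 50 kb of Ttn, 3 lay downstream in or at the start of Plekha3 and 1 upstream in Ccdc141. Neb encodes nebulin, the thin-filament ruler of skeletal muscle. Over its 242 kb and the 50 kb to either side no peak was called in either list. Genes of its length held 2.79 peaks in the gene on average, 66.7% had a peak in the gene and 79.6% one within 50 kb. The nearest peak was 59.7 kb from the Neb start site. Nebl, which encodes the related nebulette, spans 388 kb, and its 2 peaks were called in 1 list each. Genes of its length held 3.51 on average, and 53.7% of them held 2 or more. At 10.7 and 11.0 kb upstream of Nebl stood a 30-cycle and a 36-cycle peak that did not overlap.

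The M-band and myosin-binding proteins ranged from the member with the most peaks to members with hardly any. Myom1 encodes myomesin, the cross-linker of thick filaments at the M-band. It held 4 peaks in the gene, all in the 30-cycle list and 1 of them also in the 36-cycle list. Genes of its length held 1.49 on average, and 13.6% of them held as many. A 30-cycle peak among the 4, 13.1 kb from the GENCODE start, was 83.0% repeat. That peak lay upstream of the RefSeq start, which is 16.9 kb into the gene. With 12 peaks in the gene or within 50 kb, Myom1 had the most of any member, but the 7 upstream peaks all lay in the neighbouring nonmuscle myosin light chain genes Myl12a and Myl12b. Myom2, the M-protein gene, held 2 peaks in intron 6, of which the wider (780 bp) was called in both lists. Its sequence is shown because it holds CAGCTG next to CATTCC, and CATTCC again as the complement GGAATG. Myom3 had no peak within 50 kb, the nearest being 82.8 kb from its start site.
Myom2 intron 6, chr8:15072816-15073015: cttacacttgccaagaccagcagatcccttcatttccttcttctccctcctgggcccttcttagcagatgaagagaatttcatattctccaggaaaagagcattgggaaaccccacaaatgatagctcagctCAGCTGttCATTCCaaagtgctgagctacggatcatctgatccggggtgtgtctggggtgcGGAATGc

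Of the 4 genes for myosin-binding proteins, which lie along the thick filament and regulate cross-bridges, Mybph alone held peaks. Its start-site peak (chr1:134193959-134194492, 534 bp) lay in intron 2, 0.511 kb into the gene, and a peak of 311 bp lay in intron 3. Both were called in the 30-cycle list only. Genes of the length of Mybph (7.79 kb) held 0.151 peaks on average, and 2.73% held 2 or more. The slow, fast and cardiac myosin-binding protein C genes, Mybpc1, Mybpc2 and Mybpc3, each had 1 peak within 50 kb and none in the gene, all in the 30-cycle list only. Those of Mybpc2 and Mybpc3 lay at the start sites of other coding genes (Emc10 and Fam71e1, and Slc39a13), while that of Mybpc1, 693 bp wide, stood 26.4 kb upstream outside any coding gene.

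In the myosin light chain genes, 1 of 6 members held a peak in the gene. Myl1, the fast skeletal essential light chain gene, held a peak of 1072 bp in intron 2 that was called in both lists (chr1:66931336-66932407). It was the only peak within 50 kb of Myl1, and its sequence is shown as that of the only peak inside a light chain gene, with TGTGGT and TGAGTCA (the complement of TGACTCA) near the start of the stretch.
Myl1 intron 2, chr1:66931772-66931971: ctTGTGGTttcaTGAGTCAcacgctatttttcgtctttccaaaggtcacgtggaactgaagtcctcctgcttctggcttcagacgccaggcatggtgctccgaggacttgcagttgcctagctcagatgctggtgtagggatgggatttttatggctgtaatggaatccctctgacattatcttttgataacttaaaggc
Myl2, the ventricular and slow regulatory light chain gene, had no peak within 50 kb. Myl3, the slow and ventricular essential light chain gene, had 1 on either side, 15.9 kb upstream of the start site and, in both lists, 39.4 kb downstream of it. These distances are from the GENCODE start, and the RefSeq start of Myl3 lay 21.8 kb further into the gene. Mylpf, the fast regulatory light chain gene, had 3 peaks, each in 1 list. Myl4, the atrial and embryonic light chain gene, had 11 peaks at or within 50 kb of the gene. Other than the start-site peak, all 10 lay downstream inside Itgb3, the integrin beta 3 gene, 4 of them in both lists, 5 in the 36-cycle list only and 1 in the 30-cycle list only. Mylk2 encodes the skeletal muscle kinase that phosphorylates the regulatory light chain. It had 8 peaks within 50 kb and none in the gene, beside 1.75 at matched length. Of these, 4 were called in both lists and lay outside any other coding gene, at 6.66 and 5.46 kb upstream and at 14.1 and 15.4 kb downstream of the start site, and 3 lay in or at Foxs1.

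The 8 troponin genes, whose products form the calcium switch of the thin filament, had no peak at a start site and 1 peak in a gene, a 30-cycle peak of 474 bp in intron 5 of Tnnt2. By contrast, 6 of 8 had a peak within 50 kb, where genes of their lengths gave 4.60. Troponin I and troponin T genes lie side by side in the mouse genome, and the 3 neighbouring couples differed. Slow skeletal Tnni1 and cardiac Tnnt2 had 6 and 4 peaks within 50 kb and shared 2 of them, including the one inside Tnnt2. Fast skeletal Tnni2 and Tnnt3 had 6 and 5 and shared 4, which lay between both genes, 3 of them inside Lsp1. Cardiac Tnni3 and slow skeletal Tnnt1 had none, the nearest peak being 209 and 216 kb from their start sites. The Tnni1 peak nearest upstream that was called in both lists (745 bp, 7.76 kb from the start site) lay outside other coding genes, and its sequence is shown as the broadest of the troponin peaks upstream of a start site. It holds CAGCTG once, and a 30-cycle peak 7.43 kb upstream, next to it, held a MEF2 site. Both distances are from the GENCODE start. The RefSeq starts of Tnni1 lay 19.987 and 20.077 kb further into the gene, so both peaks stood further upstream of those.
Tnni1 upstream, chr1:135771201-135771400: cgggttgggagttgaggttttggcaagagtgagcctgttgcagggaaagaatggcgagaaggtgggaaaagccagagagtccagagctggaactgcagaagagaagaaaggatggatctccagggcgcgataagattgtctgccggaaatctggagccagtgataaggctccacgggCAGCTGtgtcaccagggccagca
The calcium-binding subunits had peaks within 50 kb in both cases. Slow and cardiac Tnnc1 had 2, both inside Nisch, and fast skeletal Tnnc2 had 5, all in or at the start sites of other coding genes such as Snx21 and Zswim1.

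All 4 thin-filament end genes had a peak within 50 kb and 2 had one in the gene. Tmod1 encodes tropomodulin, which caps the pointed end of actin filaments. It held 5 peaks, 46.5 to 56.7 kb into the gene in introns 4, 6 and 7, beside 0.860 on average at its length, and 3.05% of genes of like length held as many. Of the 5, 1 was called in both lists, 2 in the 30-cycle list only and 2 in the 36-cycle list only. The peak called in both (chr4:46087756-46088246, 491 bp) is shown because its centre holds TGACTCA at both base 117 and base 129 of the printed stretch.
Tmod1 intron 4, chr4:46087902-46088101: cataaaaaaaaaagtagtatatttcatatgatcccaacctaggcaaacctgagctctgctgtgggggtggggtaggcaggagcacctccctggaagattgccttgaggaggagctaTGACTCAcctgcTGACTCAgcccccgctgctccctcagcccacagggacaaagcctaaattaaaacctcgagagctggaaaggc
Lmod3, a leiomodin gene whose product nucleates actin filaments, held 1 peak in intron 2 in the 30-cycle list and had 7 within 50 kb, of which 5 lay downstream in or at the start of Arl6ip5, 3 of these in both lists. Lmod2, the cardiac leiomodin gene, had 1 peak within 50 kb, inside Wasl. Tmod4, the skeletal tropomodulin gene, had 2, one in each list.

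The 16 Z-disc and intercalated proteins included 4 of the 7 members with a start-site peak, where genes of their lengths gave 2.34. Nrap, which encodes a nebulin-related anchoring protein of forming myofibrils, held 5 peaks, beside 0.811 on average, and 2.88% of genes of its length held as many. Its start-site peak (chr19:56389243-56389508, 266 bp) lay 0.529 kb into the gene and overlapped a coding exon, with its centre in intron 2. Of the 4 others, 3 were called in both lists, in introns 12, 14 and 39, and 1 in the 30-cycle list only, in intron 21. The peak in intron 39 (chr19:56322302-56323466, 1165 bp) was the widest peak in any member. Its sequence is shown because it is a tandem repeat. Shifted by 28 bases, 71.9% of its bases met the same base, whereas in the other 9 peaks shown the best shift reached 29.6 to 35.9%. Only 4.12% of it was masked as repeat in the reference genome, and whether reads map uniquely there was not tested. The peak in intron 14 (763 bp) is shown because it holds TGAGTCA, the complement of TGACTCA, and CAGCTG.
Nrap intron 39, chr19:56322785-56322984: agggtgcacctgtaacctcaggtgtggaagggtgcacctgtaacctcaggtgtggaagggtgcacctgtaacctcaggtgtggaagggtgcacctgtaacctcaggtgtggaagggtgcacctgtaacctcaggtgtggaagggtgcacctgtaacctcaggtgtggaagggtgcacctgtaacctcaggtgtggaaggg
Nrap intron 14, chr19:56367793-56367992: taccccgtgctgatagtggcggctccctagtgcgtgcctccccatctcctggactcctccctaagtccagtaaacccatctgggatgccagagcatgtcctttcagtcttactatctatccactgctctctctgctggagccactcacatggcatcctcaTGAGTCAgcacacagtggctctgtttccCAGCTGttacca

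Pdlim5 held the most peaks in a gene. It encodes a PDZ-LIM adaptor of the Z-disc, and its 6 peaks lay in introns 1, 2 and 9, beside 1.86 on average at its length of 156 kb, with 8.81% of genes of like length holding as many. All 6 were called in the 36-cycle list and 4 of them also in the 30-cycle list. The one printed (626 bp, intron 1) was called in both, and is shown because a 36-cycle peak of 345 bp lay close beside it.
Pdlim5 intron 1, chr3:142358415-142358614: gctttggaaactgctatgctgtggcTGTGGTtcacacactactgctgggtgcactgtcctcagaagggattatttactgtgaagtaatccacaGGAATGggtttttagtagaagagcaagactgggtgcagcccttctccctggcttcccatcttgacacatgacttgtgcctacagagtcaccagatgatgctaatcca
The related Pdlim7 held 1 peak of 1099 bp in intron 2, the widest in a member gene to be called in the 30-cycle list only, and Pdlim3 had none within 50 kb, the nearest being 51.2 kb from its start site. Ldb3 held a 36-cycle peak of 264 bp in intron 9 in addition to the 30-cycle peak upstream of its start site. Of the alpha-actinins, which cross-link thin filaments in the Z-disc, Actn3 of fast fibres had its start-site peak and no other within 50 kb, while Actn2 had 2 peaks downstream, the nearer 79.9 kb from the start site. Tcap, which encodes the titin-binding telethonin, and Csrp3, the muscle LIM protein gene, had 1 peak each, 40.0 and 36.0 kb upstream and in the 30-cycle list only. Myoz1, Myoz2 and Myoz3, which encode calsarcins that bind calcineurin at the Z-disc, had 4, 3 and 5 peaks within 50 kb and none in the gene. For Myoz1 and Myoz3 every one lay in or at another coding gene, whereas Myoz2 had 2 peaks called in both lists 18.3 and 19.02 kb upstream outside coding genes. Myot, the myotilin gene, had none, the nearest being 137 kb from its start site.

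Des encodes desmin, the intermediate filament protein that links Z-discs, and is active earlier in the muscle lineage than most of the other members. It held no peak in the gene and had 3 within 50 kb. Of these, 2 were called in both lists, 15.2 kb upstream outside coding genes and 38.5 kb downstream inside Speg, itself a striated muscle kinase gene. The upstream one (836 bp) is shown as the nearest to Des. Its central 200 bases matched none of the motifs searched.
Des upstream, chr1:75344584-75344783: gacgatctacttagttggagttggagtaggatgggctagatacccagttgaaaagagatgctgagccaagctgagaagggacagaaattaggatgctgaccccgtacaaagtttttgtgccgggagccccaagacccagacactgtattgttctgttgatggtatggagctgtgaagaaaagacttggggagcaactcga
Xirp1 had 6 peaks at or within 50 kb of the gene, all inside Cx3cr1, and its relative Xirp2 had none, the nearest being 559 kb from the start site, the longest distance of any member.

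Of the 5 turnover and assembly genes, 2 had a peak within 50 kb, where genes of their lengths gave 3.29, the one role apart from the giant filament proteins in which members stood below genes of like length. Unc45b encodes the myosin chaperone of striated muscle. It held 3 peaks in the gene, beside 0.429 on average, and 2.88% of genes of its length held as many. A 36-cycle peak lay in intron 13, a 30-cycle peak in the 3′ UTR and a peak called in both lists at the 3′ end. The muscle RING-finger genes Trim54 and Trim63 and the calpain gene Capn3 had none within 50 kb, the nearest peaks being 125, 273 and 158 kb from their start sites. Trim55 had 2 upstream, at 14.7 and 15.3 kb, both at the start of another coding gene, and the wider of them (1448 bp, in both lists) was the widest near any member.

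Counted over all members, 37 peaks lay in the 49 genes, where the means of length-matched genes summed to 29.2. The count was uneven. The 5 members with 3 or more peaks, Pdlim5, Nrap, Tmod1, Myom1 and Unc45b, held 23 of the 37, and 34 members held none. Of the 15 with a peak, 7 had one that was called in both lists: Myom1, Myom2, Myl1, Tmod1, Pdlim5, Nrap and Unc45b. Most of the peaks were intronic. By the transcript with the longest coding sequence, 32 of 37 had their centre in an intron, and 29 of these touched no exon of a coding transcript.

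**Figure D4:**
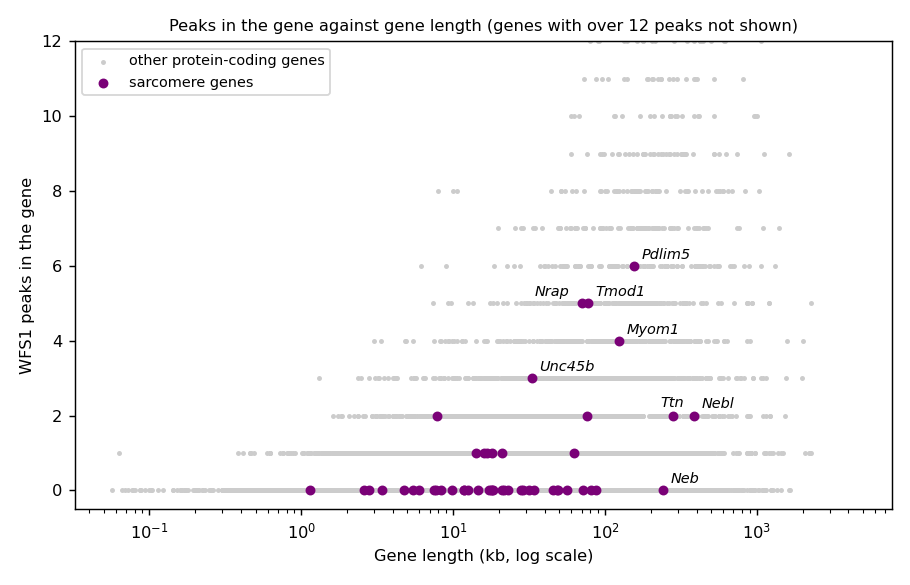
Number of WFS1 peaks in the gene against gene length (kb, log scale) for sarcomere genes (purple) and other protein-coding genes (grey); genes with more than 12 peaks are not drawn. Pdlim5, Nrap, Tmod1, Myom1 and Unc45b hold 3 to 6 peaks, while the longer Ttn and Nebl hold 2 each and Neb none.

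Around the genes the count was again uneven. Summed over members there were 155 peaks in or within 50 kb, beside 97.9 at matched length. These were 149 distinct peaks because the neighbouring troponin genes shared 6. Myom1 had 12, Myl4 11 and Mylk2 8, beside 2.87, 2.03 and 1.75 on average at their lengths. Capn3, Myl2, Myom3, Myot, Neb, Pdlim3, Tnni3, Tnnt1, Trim54, Trim63 and Xirp2 had none. The median distance from the start site to the nearest peak was 15.9 kb, compared with 41.7 kb for all coding genes and 36.6 kb for the length-matched medians. Many flanking peaks lay in or close to the start of another coding gene, and which gene such a peak acts on was not tested. Of the 118 pairs of a member and a peak outside it, 56 upstream and 62 downstream, 82 (69.5%) lay in or within 1 kb of the start site of another coding gene, beside 53.4% of 30244 such pairs of other coding genes. For 10 members every peak was of this kind, namely Lmod2, Mybpc2, Mybpc3, Myl4, Myoz1, Myoz3, Tnnc1, Tnnc2, Trim55 and Xirp1. With such peaks left out, 28 members had a peak in or within 50 kb of the gene, 10.3 percentage points above the length-matched share of 46.9%. The sum of 155 peaks and its matched value were not recomputed in this way. The median number of other coding start sites within 50 kb was 2 in the members and in all coding genes.

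**Figure D5:**
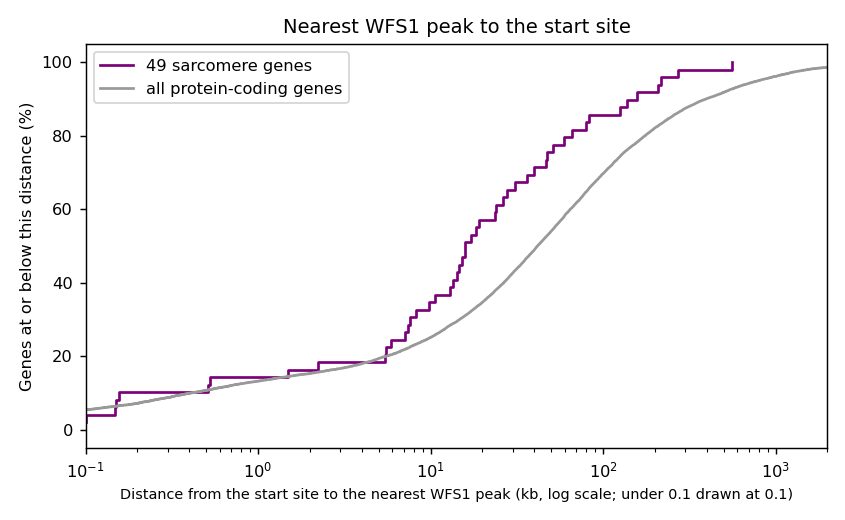
Cumulative share (%) of the 49 sarcomere genes and of all 21938 protein-coding genes by distance from the start site to the nearest WFS1 peak (kb, log scale, distances under 0.1 kb drawn at 0.1). The curves run together up to about 5 kb and then separate, with medians of 15.9 and 41.7 kb.

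The peaks of sarcomere genes resembled other WFS1 peaks in size and base composition. For the 40 peaks in a member or at its start site, the width had a median of 382 bp (376 bp over all 22287 peaks) and the median GC content was 47.1%, as over all peaks. They were called in both lists in 12 cases (30%), in the 30-cycle list only in 18 (45%) and in the 36-cycle list only in 10 (25%), beside 35.4, 45.5 and 19.1% of all peaks. Of the 109 further peaks within 50 kb, 29 (26.6%) were called in both. Repeats made up most of the sequence in 3 of the 40 (7.5%), beside 10.4% of all peaks.

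Motifs were searched on both strands in the central 200 bp of each peak. The E-box CAGCTG, of the kind bound by MyoD, was present in 11 of the 40 peaks (27.5%), in 24 of the 109 flanking peaks (22.0%) and in 17.99% of all peaks. TGACTCA (or TGAGTCA), the letters of the AP-1 site, was present in 9 (22.5%), 12 (11.0%) and 17.9%. TGTGGT, of the RUNX family, was present in 10 (25%), 23 (21.1%) and 24.7%. CATTCC, of the TEAD family, was present in 4 (10%), 26 (23.9%) and 15.6%. A MEF2 site was present in none of the 40, in 3 of the 109 (2.75%; the Tnni1 peak and 2 near Myoz1) and in 2.44%. Shares over 40 peaks move by 2.5 percentage points with each peak, and a match describes these letters and not binding.

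Of 30 other sarcomere-associated genes, 5 (16.7%) had a peak at the start site, 12 (40%) in the gene and 25 (83.3%) within 50 kb, beside 14.0, 28.0 and 62.8% at matched length. Among them, Ankrd1, a stress-responsive titin-binding ankyrin repeat gene, held 4 peaks with 1 at the start site, and Cavin4, a muscle caveolar protein gene, held 2, both at the start site.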

How the data were processed

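Peaks were taken as deposited. The authors aligned reads to GRCm38 (mm10) with NextGenMap, filtered them on mapping quality with samtools, and ran MACS2 on each library separately; the control used in calling is not given in the sources used here. The deposited lists give the position of each peak alone, without signal, p-value, score or read count, so depth and its precision are unknown. The labels assigned 1 library to each condition, so no test, replicate error or p-value was computed.

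The 30-cycle and 36-cycle lists were joined with bedtools merge (2.31.1). A peak was counted when at least 1 bp fell within 1 kb of the start site, in the gene, or in the gene and 50 kb to either side. Genes and start sites (the 5′ end of the gene record) were from GENCODE M21, sequences from the RefSeq GRCm38.p6 genome. Coordinates are 1-based. Length-matched genes were the protein-coding genes outside the list within 10% of a member's length. Counts were made in Python 3.11.15 with pandas 2.3.3 and pysam 0.24.0, and the counting code was checked on simulated peaks at known places.

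The 49 genes and the list of other sarcomere-associated and nonmuscle genes were written from general knowledge, with earlier results of these data known. Any member could be named, and those with a start-site peak, with an in-gene peak in both lists or with 3 or more peaks were described in full. Sequences were to be those of start-site peaks called in both lists, of which there were 0, and of the widest peak in a member (Nrap). The other 9 were chosen after their values were seen. RefSeq and GENCODE starts could be compared for 36 members by symbol, and for 7 of these the nearest RefSeq start was over 1 kb away, among them Myom1 (16.9 kb), Tnni1 (20.0 kb) and Myl3 (21.8 kb). Alternatives were each list alone, peaks of both lists only, wider joining, peak centres, wide peaks, other windows, other start sites and other matching.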

Additional observations from a re-analysis of the deposited data

How the results depend on the processing

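Every count of members and its difference from genes of like length was recomputed under the alternatives. Of 62 alternative values 57 stayed near the reported value, within 1.5 times for a count and within the 95% Wilson interval of the members' share for a difference, and 5 did not. All 5 were counts. With so few members the interval is wide and no difference left it, so this tally says little about how stable the differences are. At the start site the 7 members became 2 with the 36-cycle list alone, 0 with peaks called in both lists and 3 with peaks of at least median width. With peaks called in both lists, the 15 members with a peak in the gene became 7 and the 38 with a peak within 50 kb became 23; fewer peaks enter in each of these cases. The start-site difference of 0.107 percentage points lay on either side of 0, from -3.55 with peaks of both lists to 5.86 beside genes of the same CpG class. The difference within the gene ran from 2.32 to 6.28 and that within 50 kb from 10.2 (100 kb window) to 23.2 (wide peaks), above 0 under every alternative run. Counting every annotated transcript start gave 9 members by adding Nebl and Unc45b, a 2 kb window gave 8 by adding Myom1, and a 500 bp window gave 5 by leaving out Mybph and Nrap. Chosen after seeing the data were the start of the transcript with the longest coding sequence (7 members), peaks outside the gene counted only away from other coding genes and their start sites (28 members, or 30 when every start-site peak is kept) and matching on neighbouring start sites (13.4 percentage points within 50 kb). A stricter peak threshold could not be set without scores, and width stood in for it. RefSeq start sites were not used as an alternative because too few members matched. No paired analysis was possible because both lists come from the same immunoprecipitation, with 1 library each and no test; leaving out a library is the same as using the other list alone.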

Other observations

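Nonmuscle and smooth-muscle relatives, 26 genes of the same protein families, had WFS1 peaks more often than the 49 sarcomere genes in every window. The difference was not tested, and the list was written with earlier results of these data known. Some of its genes are neighbours, such as Myl12a and Myl12b, and share peaks within 50 kb. Of these 26, 12 (46.2%) had a peak at the start site, 22 (84.6%) in the gene and 25 (96.2%) within 50 kb, beside 14.9, 29.4 and 65.1% of genes of like length. At the start site the CpG-rich among them gave 7 of 13 (53.8%, beside 22.6% of all CpG-rich coding genes other than the 49) and the CpG-poor 5 of 13 (38.5%, beside 5.65% of such CpG-poor genes). Actn1, a nonmuscle alpha-actinin gene, held 5 peaks in the gene and had 2 at the start site, of which 1 was among the 5. Actn4, also of this list, held 3 and had none at the start site, whereas Actn2 held none and Actn3 held 1. Vim, the vimentin gene, held 4 peaks in the gene and had 4 at the start site, 3 of them the same peaks, whereas Des had none in either place. Among the PDZ-LIM genes Pdlim1 held 7 peaks in the gene, Pdlim5 held 6, Pdlim4 held 4 and Pdlim2 held 3. Pdlim7 and Ldb3 held 1 each and Pdlim3 none. Tmod3, the broadly expressed tropomodulin gene, held 3 peaks with 2 at the start site, whereas Tmod1 held 5 and none at the start site. The list was not free of genes without peaks, since Tmod2, Lmod1, Trim32 and Unc45a held none in the gene. How far expression in proliferating myoblasts differs between both lists was not measured in these libraries.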
